A study of Mus musculus with 6 samples.

Results

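The regions described here are 290 stretches of 500 bp in which DNA was more methylated in every hemicastrated mouse than in any sham mouse. The 19 autosomes were cut into fixed 500 bp regions from position 1, and a region was measured if it held at least 3 cytosine positions with at least 10 reads in all 6 libraries. Of 69245 measured regions, 290 (0.419%) had their lowest hemicastrated level above their highest sham level and a hemicastrated mean at least 7 percentage points above the sham mean. A level is the methylated share of all reads summed over the positions of a region. The members were picked by these levels, so their levels and differences are given as descriptions with no test. The same rule turned the other way found 676 regions (0.976%), called the lower regions below.

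The study took the right testis of 6 adult male KM mice, KM being the strain name in the labels. The 3 hemicastrated mice had lost their left testis to surgery before puberty, and 3 normal mice had sham surgery at the same time. No gene was altered, and the labels give neither exact ages nor pooling, so each library is taken as 1 mouse. Methylation was read by reduced representation bisulfite sequencing (RRBS), in which the enzyme MspI cuts DNA at CCGG and short fragments are converted with bisulfite and sequenced.

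Methylation of the cytosine in CpG dinucleotides is copied to new strands by maintenance enzymes when DNA is replicated. CpG-dense gene starts are usually unmethylated in all tissues, whereas the rest of the genome is mostly methylated. Male germ cells set their methylation before birth, including at paternally imprinted control regions, and the adult testis is a mixture of spermatogonia, spermatocytes and spermatids with Sertoli, Leydig and peritubular cells. A whole-testis level is an average over these cells, so a different mix of cells and a different level within a cell type cannot be told apart in these data. Bisulfite turns unmethylated cytosine into a base read as T, so a C-to-T difference in the DNA sequence is also read as an unmethylated cytosine.

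The labelled tissue was checked at marker genes, within 2000 bp of a gene boundary. Genes methylated in the female but not the male germ line were measured at 5 of 7 loci, with a median level of 10.3% in hemicastrated and 8.26% in sham mice. The loci were not alike. Mest had 19.9% in hemicastrated and 6.89% in sham mice, with single mice between 0.483% and 26.0%. Nnat had 23.4% in hemicastrated and 22.9% in sham mice, and Kcnq1ot1 went the other way, with 7.41% in hemicastrated and 8.32% in sham mice. Of the loci methylated in the male germ line, H19 had 90.4% in hemicastrated and 90.7% in sham mice over 2 positions, while the window at Rasgrf1 had 1.11% in hemicastrated and 0.644% in sham mice, at 28 positions that need not cover its control region. Germ cell genes were measured at 7 of 8 loci and had between 8.79% and 87.1% in hemicastrated and between 7.57% and 87.8% in sham mice. Their median was 23.4% in hemicastrated and 14.7% in sham mice. All of the 7 but Prm1 were higher in hemicastrated mice, and this difference was not tested. The highest level of the 7 was at Prm1, the gene of protamine 1, which sperm precursors express. One of the 7 is Tnp1, itself at a member, which had the widest contrast, with 23.5% in hemicastrated and 11.9% in sham mice. The libraries held 64504011 to 78630942 calls, and the mean level over all measured regions lay between 48.4% and 49.1% in hemicastrated and between 48.4% and 49.6% in sham mice. No library stood apart among the members: each hemicastrated library was the highest of its group in 89 to 105 of them, and each sham library in 83 to 109.

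Sequence was at hand for the windows from 250 bases before to 50 bases after gene starts (RefSeq, build GRCm38.p6), and 3 windows with at least 3 measured CpGs of a member are shown because they let the measured letters be seen. Each is printed 5′ to 3′ on the strand of its gene, in lower case, and the capitals mark the measured CpGs. The Tnp1 window lies at chr1:73015850-73016149 on the minus strand, the Jade1 window at chr3:41555484-41555783 on the plus strand, and the E330017L17Rik window at chr4:129905976-129906275 on the plus strand.
Tnp1: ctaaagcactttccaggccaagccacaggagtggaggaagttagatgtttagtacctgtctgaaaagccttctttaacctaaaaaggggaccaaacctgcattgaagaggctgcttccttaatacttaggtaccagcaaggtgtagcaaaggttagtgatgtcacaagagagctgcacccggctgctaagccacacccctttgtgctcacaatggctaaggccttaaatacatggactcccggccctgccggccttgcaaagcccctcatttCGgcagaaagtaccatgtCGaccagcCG
Jade1: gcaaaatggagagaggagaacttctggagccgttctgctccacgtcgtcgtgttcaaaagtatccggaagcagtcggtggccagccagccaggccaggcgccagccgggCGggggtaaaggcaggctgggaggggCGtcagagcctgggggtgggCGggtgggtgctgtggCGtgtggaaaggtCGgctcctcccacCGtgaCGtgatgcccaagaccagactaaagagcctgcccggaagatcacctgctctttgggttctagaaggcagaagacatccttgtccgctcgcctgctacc
E330017L17Rik: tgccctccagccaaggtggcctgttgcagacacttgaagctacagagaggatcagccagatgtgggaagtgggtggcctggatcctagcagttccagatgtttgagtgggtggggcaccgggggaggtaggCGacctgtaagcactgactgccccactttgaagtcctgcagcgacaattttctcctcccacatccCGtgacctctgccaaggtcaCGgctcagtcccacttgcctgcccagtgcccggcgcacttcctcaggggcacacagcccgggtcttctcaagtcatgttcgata

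The measured CpGs cluster within short stretches: 3 of 6 CpGs of the Tnp1 window, 7 of 18 of the Jade1 window and 3 of 9 of the E330017L17Rik window were covered deeply enough in all libraries. Each window holds 3 CCGG sites, the cutting sites of MspI. Such crowding was general. In 278 of the 290 members (95.9%), all measured CpGs lay within 220 bp, the upper fragment length selected per the labels, against 82.7% of all measured regions. CpGs of a member can therefore come from the same molecules and are not independent measurements.

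The 290 members had a median level of 70.8% in hemicastrated and 58.5% in sham mice. Their differences ran between 7.02 and 31.5 points with a median of 9.83, while the median over all measured regions was -0.02. In 140 members the difference was at least 10 points and in 15 at least 20 points. The gap between the lowest hemicastrated and the highest sham mouse was small, with a median of 2.39 points, under 1 point in 63 members and 7 points or more in 17. Groups that did not overlap at any size were found in 4.61% of measured regions in the higher and 4.92% in the lower direction. A mean difference of 7 points or more, whatever the overlap, was found in 1.32% of regions in the higher and 3.17% in the lower direction.

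Members differed from one another in how many CpGs carried the difference, and 3 classes were formed by leaving out the CpG that contributed most, here called the top CpG. In 104 regional members (35.9%), at least 2 other CpGs were left and these still met the whole rule. In 59 one-CpG members (20.3%), the difference of the rest fell under 3.5 points, so that a single CpG carried it. The other 127 members (43.8%) are called intermediate, among them 31 with only 2 CpGs. The lower regions held 294 regional (43.5%), 319 intermediate (47.2%) and 63 one-CpG regions (9.32%). These shares are descriptions of 2 selected sets, and no test of their difference was made.

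**Figure D1:**
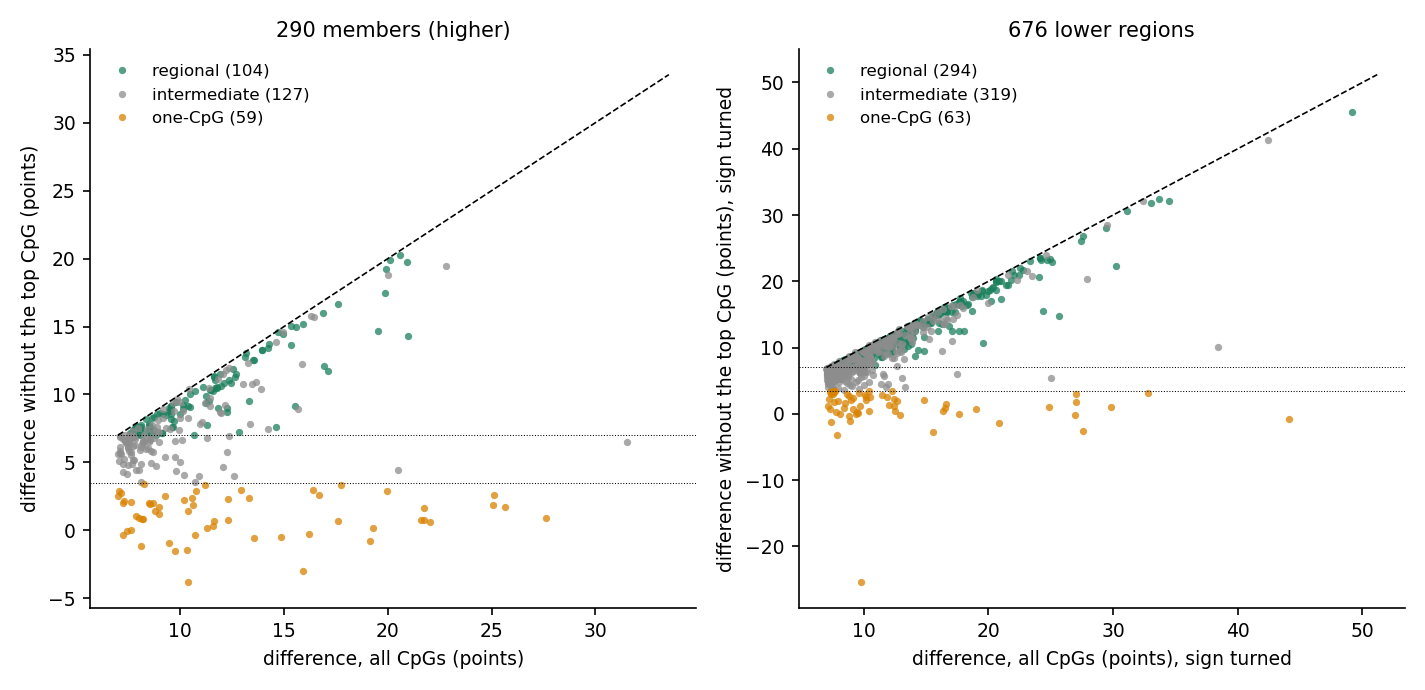
Difference between group means with all CpGs (x axis, percentage points) and without the top CpG (y axis, percentage points) for the 290 members on the left and the 676 lower regions on the right, whose signs are turned. The dashed line marks equal values and the dotted lines 7 and 3.5 points. The 104 regional members lie at 7 points or more on the y axis. Some lie well below the dashed line, such as the region in Igsf21, with 20.99 points on the x axis and 14.3 on the y axis. The 59 one-CpG members lie below 3.5 points whatever their full difference.

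Regional members were mostly regions of low to middle methylation. Their median level was 36.5% in hemicastrated and 24.7% in sham mice, and 64 of 104 had a sham level under 50%. Their median difference was 11.2 points, and 9.19 points without the top CpG. In 97 of the 104 every CpG was higher on average in hemicastrated mice, and in 86 at least 2 CpGs had no overlap between the groups, which the rule for the class makes likely. One-CpG members were mostly highly methylated, with a median of 91.6% in hemicastrated and 78.8% in sham mice, and only 8 of 59 had a sham level under 50%. Their median difference was 10.6 points and fell to 1.62 points without the top CpG, whose own difference had a median of 35.7 points against 14.7 points in regional members.

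The largest regional differences fell at genes of varied function and often between genes. Igsf21, a gene of the immunoglobulin superfamily, held the first of them at chr4:140224001-140224500, inside the gene, with 74.0%, 91.7% and 56.8% in the hemicastrated mice, against 50.8%, 55.5% and 53.2% in the sham mice. The sham mice lay close together and the hemicastrated mice were spread, so the difference of 20.99 points was 12.2 points without hemicastrated mouse 2. Of the 3 Igsf21 CpGs, 2 were higher in hemicastrated mice, the top one with 90.9%, 95.5% and 48.2% in the hemicastrated mice, against 46.6%, 47.4% and 47.3% in the sham mice. The third went the other way, with 30.8%, 83.1% and 93.6% in the hemicastrated mice, against 85.6%, 91.5% and 84.1% in the sham mice. A region at chr18:81398001-81398500, 411 kb from Sall3, the nearest coding gene, which encodes a zinc finger transcription factor, had 81.1%, 89.2% and 77.6% in the hemicastrated mice, against 59.0%, 68.5% and 57.5% in the sham mice. Its 6 CpGs were all higher in hemicastrated mice, 5 of them with no overlap between the groups, called separated below, and its lowest library had 15.9 reads per position. Ccdc127, which encodes a coiled-coil protein, had 97.7%, 73.0% and 77.1% in the hemicastrated mice, against 56.1%, 64.9% and 65.2% in the sham mice, at chr13:74356501-74357000. All 6 CpGs of the Ccdc127 region were separated between the groups, and the difference of 20.6 points was 13.01 points without hemicastrated mouse 1.

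**Figure D2:**
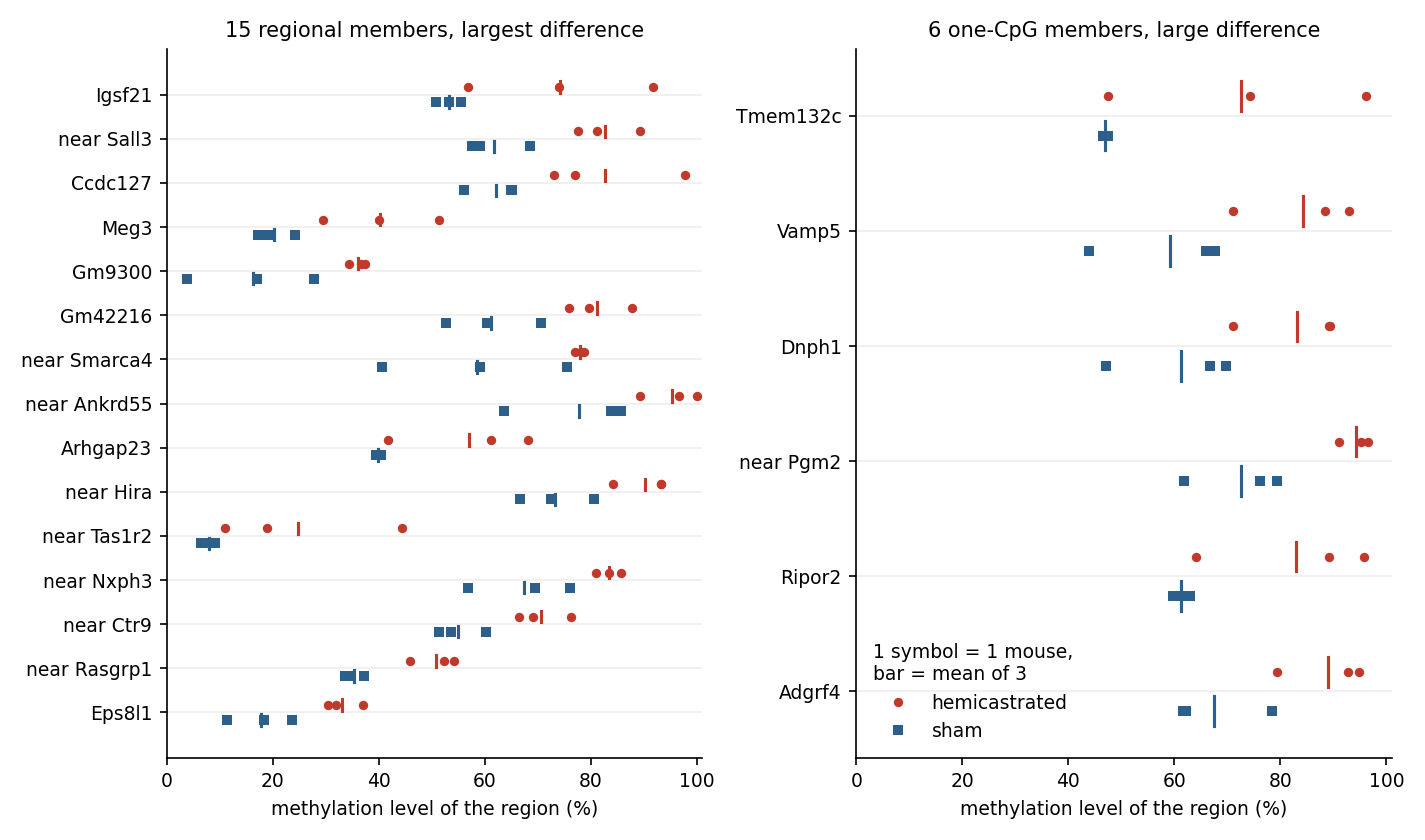
Methylation level (x axis, percent) of the 15 regional members with the largest difference and of 6 one-CpG members with a large difference, named by the gene they lie in or the nearest coding gene. Circles are the 3 hemicastrated mice, drawn above the squares of the 3 sham mice, and short bars are group means. No row has overlapping groups, as the rule demands, and several rows such as Igsf21, Tas1r2 and Tmem132c rest on a wide spread within 1 group.

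Among the others of the 15, Gm9300, annotated as a pseudogene, had 34.3%, 37.4% and 36.6% in the hemicastrated mice, against 16.96%, 27.8% and 3.75% in the sham mice, with all 6 CpGs separated between the groups. Here the hemicastrated mice agreed within a few points and the sham mice were spread. Gm42216, a long noncoding RNA gene, averaged 81.1% ± 6.03 in hemicastrated and 61.2% ± 9.005 in sham mice (SD, n = 3 each). Its 3 CpGs lay within 15 bp, and its lowest library had 16.0 reads per position. A region 7.27 kb from Smarca4, which encodes a catalytic subunit of the BAF chromatin remodelling complex, averaged 77.9% ± 0.925 in hemicastrated and 58.4% ± 17.5 in sham mice, and its difference of 19.5 points was 10.6 points without sham mouse 2. A region 60.5 kb from Ankrd55, an ankyrin repeat gene, averaged 95.3% ± 5.48 in hemicastrated and 77.7% ± 12.2 in sham mice, with as few as 11 reads per position in its lowest library, and its difference of 17.6 points was 10.6 points without sham mouse 1.

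Arhgap23, which encodes a GTPase-activating protein, held a region with 61.2%, 41.7% and 68.2% in the hemicastrated mice, against 39.5%, 40.3% and 39.9% in the sham mice. None of its 4 CpGs was separated on its own, and hemicastrated mouse 2 lay just above the sham mice. A region 13.7 kb from Tas1r2, which encodes a subunit of the sweet taste receptor, had 44.3%, 11.02% and 18.9% in the hemicastrated mice, against 9.02%, 8.19% and 6.52% in the sham mice, and its difference of 16.9 points fell to 7.06 points without hemicastrated mouse 1. Its 3 CpGs lay within 13 bp, and its lowest library had 15.3 reads per position. The region 11.7 kb from Hira, which encodes a histone chaperone for the H3.3 variant, averaged 90.2% ± 5.22 in hemicastrated and 73.2% ± 6.97 in sham mice. Its 3 CpGs lay within 17 bp, at 14.7 reads per position in the lowest library. The region 26.4 kb from Nxph3, a neurexophilin gene, averaged 83.3% ± 2.38 in hemicastrated and 67.4% ± 9.70 in sham mice, with 11.6 reads per position in its lowest library. The region 6.95 kb from Ctr9, which encodes a subunit of the PAF1 transcription elongation complex, averaged 70.6% ± 5.15 in hemicastrated and 55.0% ± 4.602 in sham mice.

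The region 95.1 kb from Rasgrp1, which encodes an activator of Ras, was the most deeply read of the 15. It had 119.5 reads per position in its shallowest library, with 54.2%, 52.3% and 45.8% in the hemicastrated mice, against 33.6%, 34.8% and 37.2% in the sham mice. The groups were 8.54 points apart at their nearest mice. Of its 3 CpGs, 2 were separated with hemicastrated mice higher and 1 with them lower, at 0%, 2.09% and 0% in the hemicastrated mice, against 11.4%, 9.67% and 10.3% in the sham mice. Without its top CpG, which had 77.9%, 75.3% and 64.2% in the hemicastrated mice, against 41.2%, 43.1% and 47.9% in the sham mice, the difference was 9.13 points. Eps8l1, related to the actin regulator Eps8, closed the 15 with 33.1% ± 3.39 in hemicastrated and 17.8% ± 6.16 in sham mice. Only 6 of the 15 also held positions that the rule had left out for want of reads in some library, with at least 10 such reads in every library. There the difference was 20.9 points at Meg3, 13.9 points near Sall3 and 2.83 points at Arhgap23, but -4.99 points at Igsf21, -6.89 points at Gm9300 and -9.52 points at Ccdc127.

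Imprinted genes are expressed from 1 parental copy, which differential methylation marks. In the imprinted domain between Dlk1 and Dio3 on chromosome 12, 48 regions were measured, of which 3 were members and 2 lower regions. Inside Meg3, a maternally expressed noncoding RNA gene, the region chr12:109549501-109550000 had 51.4%, 29.5% and 40.0% in the hemicastrated mice, against 19.05%, 17.3% and 24.2% in the sham mice. All 11 of its CpGs, spread over 108 bp, were higher in hemicastrated mice and 10 were separated between the groups, at 21 or more reads per position. Positions of the same region that the rule did not use, because some library had fewer than 10 reads there, differed by 20.9 points, with at least 50 such reads in each library. These positions can lie on the same molecules as the used ones. The 2 lower regions lay at the boundary of Meg3 itself, about 8 kb away, and averaged 8.69% and 10.1% in hemicastrated against 19.1% and 19.6% in sham mice.

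The only adjacent members lay at chr12:110250001-110250500 and chr12:110250501-110251000, 28.7 and 28.2 kb from Dio3, which encodes the enzyme that inactivates thyroid hormones. The first had 39.1%, 63.1% and 45.2% in the hemicastrated mice, against 23.2%, 26.3% and 29.5% in the sham mice. The second had 27.3%, 59.8% and 38.6% in the hemicastrated mice, against 17.6%, 22.8% and 25.4% in the sham mice. The order of the mice was the same in both, hemicastrated mouse 2 being highest, and without it the difference of 19.99 points in the second fell to 11.03 points. The CpGs of both lay close together across the shared boundary, between chr12:110250444 and chr12:110250540. The read sums were nearly equal, such as 184 and 183 in hemicastrated mouse 1. The 2 regions can therefore come from the same molecules and are not independent, although they count as 2 of the 3 members of the domain. With 2 CpGs each, both are classed as intermediate, although both CpGs of the first and 1 of the second were separated. The median difference over all 48 regions of the domain was 0.208 points.

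**Figure D3:**
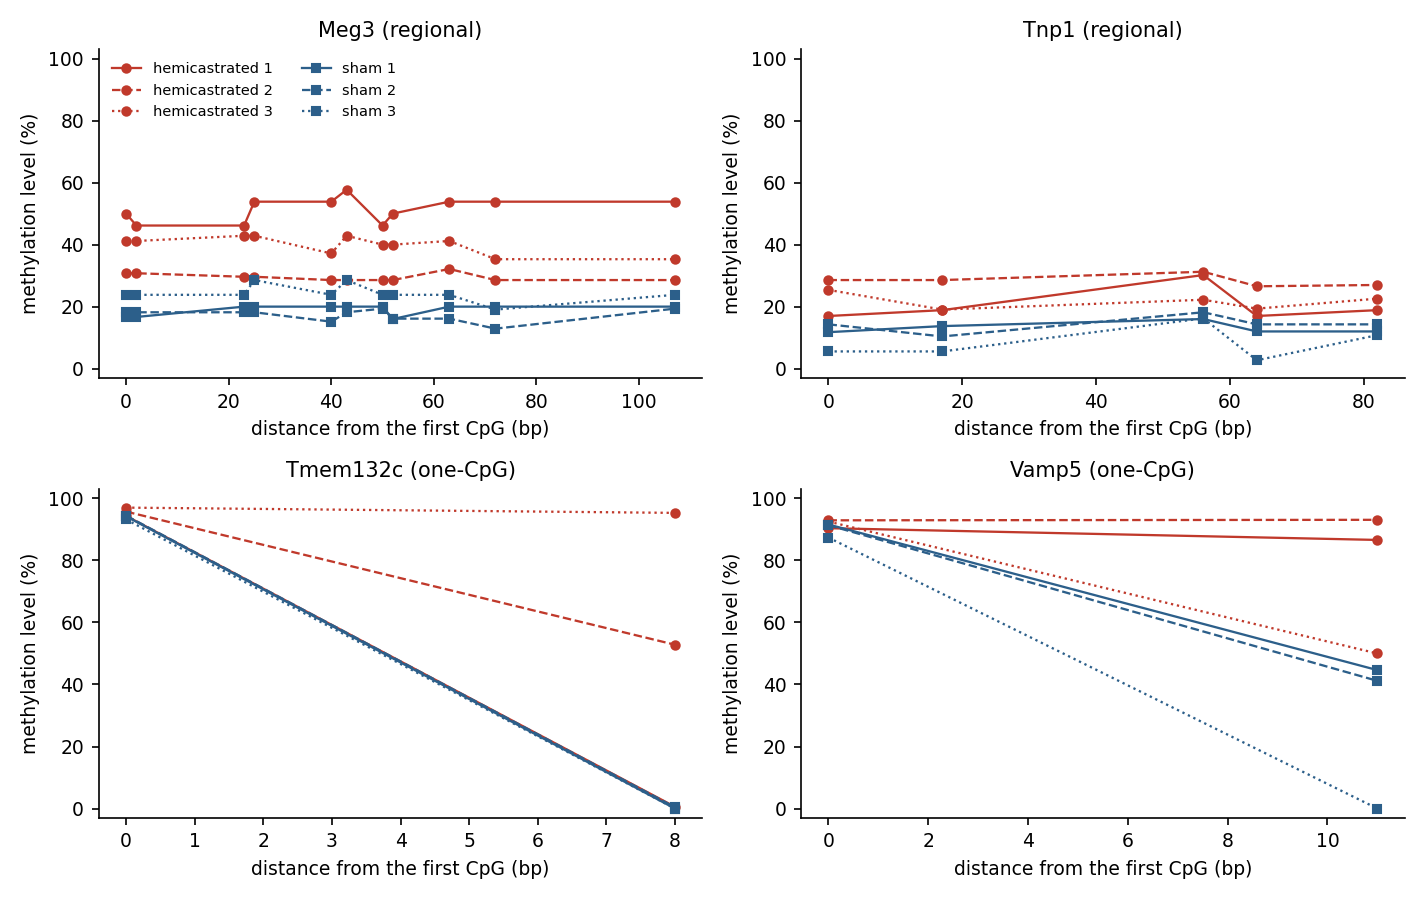
Methylation level (y axis, percent) of each measured CpG against its distance from the first CpG of the region (x axis, bp) in 2 regional members, Meg3 and Tnp1, and 2 one-CpG members, Tmem132c and Vamp5. Each line is 1 mouse, with circles for hemicastrated and squares for sham mice. In Meg3 and Tnp1 the hemicastrated means lie above the sham means at every CpG, whereas in Tmem132c and Vamp5 the mice lie close together at one CpG and far apart at the other.

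Tnp1 encodes transition protein 1, which replaces histones in spermatids before protamines do. The region over its start, chr1:73015501-73016000, had 20.4%, 28.4% and 21.7% in the hemicastrated mice, against 13.1%, 14.3% and 8.20% in the sham mice, a difference of 11.6 points. Its 5 CpGs, 3 of them in capitals in the Tnp1 sequence above and 2 further into the gene, were each separated between the groups, with 36 or more reads. At the last CpG of that sequence the levels were 30.2%, 31.2% and 22.2% in hemicastrated mice, against 16.0%, 18.2% and 16.2% in sham mice. Positions not used by the rule differed by -0.797 points in the same region, with at least 39 reads per library. The window also holds the start of 1700027A15Rik, an antisense neighbour, so the region belongs to both genes.

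Few members lay at listed gene starts. A listed start lay within 1000 bp of 12 of 284 members off chromosome 18, for which no starts were at hand. That is 4.23%, against 28.3% of all measured regions and 9.15% of the lower regions. The median distance to the nearest listed start was 22187 bp for members and 10853 bp for all measured regions. The list also had gaps on other chromosomes: the member inside Rad21 lay 316850 bp from the nearest listed start. These shares and distances therefore rest on an incomplete list. Inside genes lay 61.4% of members and 74.0% of measured regions, and inside coding genes 49.0% of members and 66.8% of measured regions. A sham level under 10% was found in 8.28% of members and 38.5% of all measured regions. Where the mean level of all mice was under 5%, 1 of 25250 measured regions was a member. The shares at starts and inside genes were not matched on level. Whether members are fewer at starts than other regions of a like level was not tested.

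Members at a gene boundary with a sham level under 50% are given next, a choice made on the level. A boundary is either end of a gene. The gene's own listed start lay 68059 bp away at Smad6, 17291 bp away at Mdfi and 18955 bp away at Flg. At the start of Jade1, which encodes a subunit of the HBO1 histone acetyltransferase complex, the region had 29.1%, 33.7% and 41.2% in the hemicastrated mice, against 27.9%, 21.7% and 5.36% in the sham mice. The 7 CpGs in capitals in the Jade1 sequence had almost the same level within a mouse, at 14 reads in the shallowest library. Only 2 of the 7 were separated, and the difference of 16.3 points was 9.81 points without sham mouse 3. At E330017L17Rik, a long noncoding RNA gene, the 3 CpGs in capitals rest on as few as 11 reads, and the region averaged 29.2% ± 5.83 in hemicastrated and 13.3% ± 7.60 in sham mice. Smad6, which encodes an inhibitor of bone morphogenetic protein signalling, had 29.1%, 33.9% and 15.5% in the hemicastrated mice, against 15.4%, 5.88% and 12.4% in the sham mice over 15 CpGs. The lowest hemicastrated and the highest sham mouse were 0.0578 points apart at Smad6.

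Mdfi, which encodes an inhibitor of myogenic transcription factors, had 19.5%, 31.6% and 16.2% in the hemicastrated mice, against 14.6%, 0% and 10% in the sham mice, with 7 of 7 CpGs higher and as few as 10 reads per position. The next 500 bp, not itself a member, differed by 14.5 points, and unused positions of the Mdfi region by 9.73 points, on as few as 11 reads. Flg, which encodes the skin protein filaggrin, averaged 51.6% ± 2.55 in hemicastrated and 39.3% ± 3.41 in sham mice, and its top CpG had 33.3%, 61.4% and 0% in the hemicastrated mice, against 0%, 0% and 0% in the sham mice. The noncoding Gm30008 averaged 28.7% ± 8.42 in hemicastrated and 15.5% ± 1.37 in sham mice and the region next to Gm10146 averaged 24.3% ± 4.36 in hemicastrated and 10.1% ± 7.24 in sham mice.

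Some regional members lay in pseudogenes, inactive copies of other genes: 12 of 104 (11.5%) overlapped an annotated pseudogene, against 3.06% of the regional lower regions and 1.74% of all measured regions. All 12 had a sham level under 50%, which makes 12 of 64 such members (18.8%), beside 6.05% of all measured regions with a sham level between 5% and 50%. Gm9300 above is the largest of them, and Rpl19-ps11, named for a ribosomal protein gene, averaged 52.5% ± 5.80 in hemicastrated and 40.7% ± 5.83 in sham mice, with 5 of 6 CpGs higher in hemicastrated mice. The mean levels of the 12 lay between 20.7% and 52.5% in hemicastrated mice, against 11.8% and 40.7% in sham mice. No test of these shares was made. Reads of a pseudogene can be confused with those of its parent gene, so these levels are uncertain. How reads that map more than once were placed is not stated in the labels.

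One-CpG members were often stepped. The top CpG took levels within 15 points of 0, 50 or 100% in all 6 mice, with at least 35 points between the lowest and highest mouse, in 40 of the 59 one-CpG members, 6 of the 104 regional and 7 of the 127 intermediate ones. Of all 545972 CpGs of measured regions, 1798 (0.329%) had such stepped levels, and they made up 20.2% of the CpGs with so wide a range. In the lower regions, 34 of 63 one-CpG regions had a stepped top CpG. Levels near 0, 50 and 100% are those that carriers of 2, 1 and 0 copies of a C-to-T sequence difference would give, and the DNA sequence of these mice was not tested.

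In Tmem132c, which encodes a transmembrane protein, 2 CpGs 8 bp apart were read at least 177 times in each mouse. The first had 93.2% or more in every mouse and the second 0.565%, 52.8% and 95.3% in the hemicastrated mice, against 0%, 0.427% and 0% in the sham mice. The Tmem132c difference of 25.6 points was 13.9 points without hemicastrated mouse 3, the lowest hemicastrated level lying 0.0217 points above the highest sham level.

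The other large one-CpG members given here had a like form, although the top CpG at Dnph1 fell just outside the definition of stepped levels. In Vamp5, which encodes a vesicle SNARE protein, the top CpG had 86.6%, 93.1% and 50% in the hemicastrated mice, against 44.6%, 41.2% and 0% in the sham mice. Dnph1, which encodes a nucleotide hydrolase, had 84.8%, 50% and 86.7% in the hemicastrated mice, against 49.3%, 1.05% and 42.6% in the sham mice. In Ripor2 the top CpG had 93.4%, 100% and 0% in the hemicastrated mice, against 0%, 0% and 2.90% in the sham mice. Adgrf4, which encodes an adhesion G protein-coupled receptor, had 94.9%, 50.8% and 92.0% in the hemicastrated mice, against 47.7%, 0% and 0% in the sham mice. The CpG 14.4 kb from Pgm2, which encodes a phosphoglucomutase, had 94.7%, 94.9% and 87.1% in the hemicastrated mice, against 0%, 48.9% and 41.7% in the sham mice. The largest difference of all members, 31.5 points, was of this kind although classed as intermediate: at chr12:110669501-110670000 in 1700001K19Rik, a protein-coding gene, 1 of 2 CpGs had 44.9%, 91.7% and 37.5% in the hemicastrated mice, against 0%, 2.50% and 0% in the sham mice. A region 17.8 kb from Ky, a muscle gene, likewise had a top CpG with 93.8%, 91.7% and 49.1% in the hemicastrated mice, against 0%, 36.1% and 40.5% in the sham mice.

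Some members lay in runs along the chromosomes. With gaps of at most 500 kb taken as a run, 62 members (21.4%) lay in 25 runs, and of the lower regions 314 (46.4%) in 123 runs. A larger set falls into runs more often, and there were 676 lower regions against 290 members. No share expected from the placement of all measured regions was computed, so shares in runs are descriptions only. Taken alone, 15 of the 59 one-CpG members (25.4%) lay in 6 runs of their own kind and 2 of the 104 regional members in 1. Between chr7:125293001-125293500 and chr7:125572001-125572500, around the interleukin 4 receptor gene Il4ra, all 3 members among 12 measured regions were one-CpG members. At the last of them the region had 93.8%, 80.5% and 93.4% in the hemicastrated mice, against 69.4%, 69.1% and 72.0% in the sham mice. Its neighbour at chr7:125486001-125486500 had 95.3%, 80.3% and 99.4% in the hemicastrated mice, against 70.6%, 73.2% and 73.3% in the sham mice, the mice standing in nearly the same places. The largest run, chr17:46074001-46587000 with Ttbk1, Dnph1, Cul9 and Ptk7, held 6 members among 64 measured regions, 3 of them one-CpG members and 2 regional. Runs of 4 members lay, among others, from Igsf21 to Crocc on chromosome 4 and from Dio3 to Gm35846 on chromosome 12. By chromosome, members made up between 0.151% of the measured regions of chromosome 11 and 0.780% of those of chromosome 9.

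The gene lists held 0 or 1 member each, which is near what the share over all regions gives. Within 5 kb of the genes of each list, 0 of 76 regions at spermatogonial genes were members, as were 0 of 38 at meiosis genes, 0 of 43 at Leydig and steroid synthesis genes, 0 of 92 at Sertoli genes and 0 of 31 at peritubular and smooth muscle genes. There were also 0 members among 128 regions at hormone and growth signalling genes and 0 among 68 at genes of the methylation machinery. Of the lists with a member, spermiogenesis had 1 of 142 regions (Tnp1), imprinted genes 1 of 91 (Meg3) and the piRNA pathway 1 of 48. That one lay in Mov10l1, which encodes a helicase needed to make piRNAs, the small RNAs that silence transposons in germ cells. It was a one-CpG member whose top CpG had 99.0%, 96.8% and 97.2% in the hemicastrated mice, against 0%, 42.3% and 55.6% in the sham mice, and the other 6 CpGs together differed by -1.48 points. With 0.419% of all regions in the set, lists of this length would hold less than 1 member each at the background share. The counts therefore show neither a lack nor an excess of members at these genes.

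Binned by the mean level of all 6 mice, members made up 1.99% of the measured regions between 10 and 20% of methylation (55 of 2760) and 2.16% of those between 20 and 30% (37 of 1711). Their share was 1.35% between 30 and 50%, and 0.704% to 1.03% in each bin between 50 and 90%. The lower regions made up 1.52% and 2.45% of the first pair of bins and 6.26% of the regions between 30 and 50%. Below 5%, 1 of 25250 regions was a member, and from 90% upwards 39 of 22358 were. The levels that form the bins also entered both rules, so these shares are descriptions with no test.

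**Figure D4:**
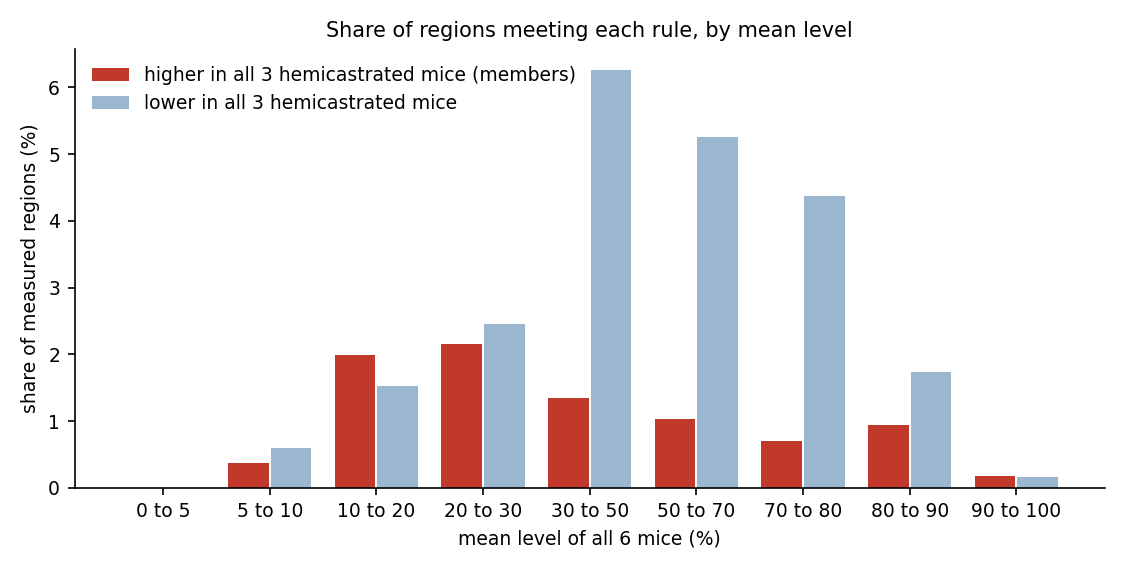
Share of measured regions (y axis, percent) that were members or lower regions, by mean level of all 6 mice (x axis, percent). The share of members is largest between 20 and 30%, at 2.16%, and the share of lower regions between 30 and 50%, at 6.26%.

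Members were also thinly read. The median depth was 33.0 reads per position, against 53.8 in all measured regions, and in 130 members (44.8%) the shallowest library had under 20 reads per position, against 18.7% of all regions and 34.8% of the lower regions. Where the shallowest library had 10 to 15 reads per position, 1.23% of regions were members, and where it had 50 to 100 reads, 0.151%. Members had a median of 4 positions and all regions 7, and 80 of the 290 had the minimum of 3. Of the 290, 147 could be measured with at least 20 reads at each position, and 132 of these still met the rule. The same reads were used in both counts, and a region whose positions all had 20 reads kept its levels. The 132 are therefore no separate check of depth. The part of counting error in the selection was not tested. The share of each library's reads that fell in members differed by less than the spread between mice: 0.123% ± 0.00685 in hemicastrated and 0.125% ± 0.0114 in sham mice (SD, n = 3 each), with an exact two-sided permutation p of 0.9, where 0.1 is the smallest this design allows.

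Positions that the rule left out give a look at the same regions at CpG calls not used to choose them. The counts carry no read identity, so these positions can lie on the same molecules as those used. They are therefore not an independent check. The unused positions lay inside the region but had fewer than 10 reads in some library, and 118 members had at least 10 such reads in every library. Their median difference was 0.820 points, 63 of 118 (53.4%) were higher on average in hemicastrated mice and 10 (8.47%) had no overlap, against 46.8% and 3.61% over all measured regions with such positions. For the 45 regional members among them the median was -1.08 points and 20 were higher. In the lower regions the median was -4.94 points, and 71 of 233 (30.5%) were higher. Some of these positions are the opposite strand of a CpG that was used.

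Neighbouring regions gave a like picture. Of 42 measured regions next to a member and not members themselves, 22 (52.4%) were higher in hemicastrated mice, with a median of 0.224 points, against 51.8% of regions next to any measured region. Of the 126 next to a lower region, 29 (23.0%) were higher, with a median of -3.10 points. Of the regions next to members, 4 differed by 7 points or more, among them the one at Mdfi.

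**Figure D5:**
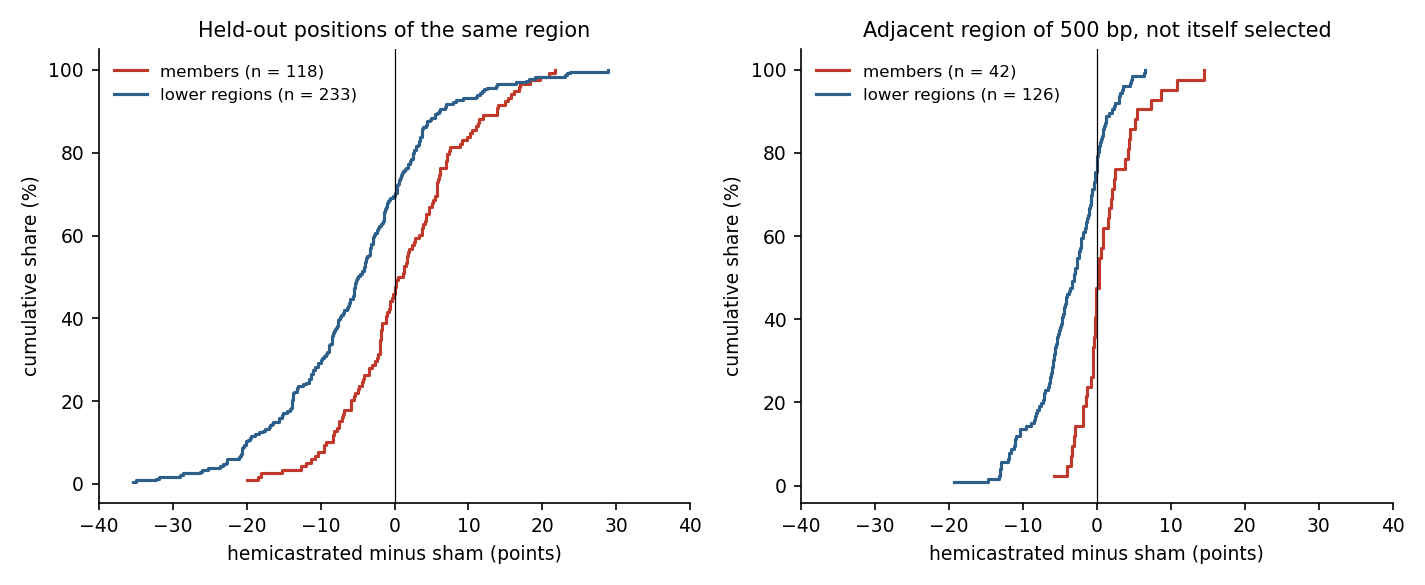
Cumulative share (y axis, percent) of the difference between hemicastrated and sham means (x axis, percentage points) at unused positions of the same region on the left and in adjacent unselected regions on the right. The curve of the members crosses 0 near the middle in both panels, with 63 of 118 and 22 of 42 above 0, while that of the lower regions is shifted to the left, with 71 of 233 and 29 of 126 above 0.

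A test over all regions called no region. edgeR's quasi-likelihood test with Benjamini-Hochberg adjustment called 0 of 69164 regions (0%) at an adjusted p of 0.05, with 2968 regions at an unadjusted p under 0.05 (4.29%) and a smallest adjusted p of 0.106. limma on log2 ratios likewise called 0, with 3444 at an unadjusted p under 0.05. The members just inside the threshold differed by 7.02 points in Rad21, 7.02 in Sult2a2 and 7.05 in Vdr. The nearest regions outside it, with groups that did not overlap, differed by 6.99 points in Helz, 6.98 in Tox2 and 6.95 in 4930556G01Rik.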

How the data were processed

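RRBS was made from the right testes of 3 hemicastrated and 3 sham mice, 1 library each. Per the labels, MspI fragments of 40 to 220 bp were selected, and per the submitters' processing notes Bismark, TopHat2 2.0.11 and GRCm38 were used, with no role stated. Nothing is stated on trimming or duplicate removal. The authors deposited for each cytosine position the methylated and unmethylated read counts, raw, and the level in percent. The percent deposited equals the methylated share of the 2 counts, and strand and context are not in the files. Among positions in promoter windows of known sequence, 99.6% lay in a CpG.

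Levels were recomputed from summed counts with Python 3.11.15 (numpy 2.4.6, pandas 2.3.3) as described with the members. Positions next to each other were taken as the 2 strands of a CpG. Over all regions with both methylated and unmethylated reads, edgeR 4.0.16 in R 4.3.3 fitted methylated and unmethylated counts with a column per library and methylation by group (quasi-likelihood F test, Benjamini-Hochberg), and limma 3.58.1 was fitted to log2 ratios with 1 added to each count. The fit was tested on simulated data. Gene boundaries and starts came from RefSeq tables of GRCm38.p6.

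Named regions were the 15 regional, 8 one-CpG and 4 intermediate members with the largest difference, up to 12 at a gene boundary with a sham level under 50% or in a listed gene, adjacent members and those nearest the threshold. Examples from runs, Mov10l1 and Dlk1-Dio3 regions outside that rule were chosen after their values were seen. The members, lists and classes were chosen with earlier results of these data known. Of the 8 one-CpG members, 2 are not reported here. Replicate numbers were not taken as pairs. Alternatives changed the read minimum, positions, region length and start, threshold, weighting, strands, model and replicates. Counting error alone limits a level at 10 reads per position strongly, and PCR copies are not independent molecules.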

Additional observations from a re-analysis of the deposited data

Results flagged for a closer look

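Chromosome X was outside the 19 autosomes of the rule, and 10 of its 1931 measured regions met the same rule in the higher direction, while 19 met it in the lower direction. Of 59 measured regions on chromosome Y, 0 were higher and 2 lower. The largest X difference, 17.6 points, lay in the pseudogene Gm14784, which averaged 34.95% ± 10.1 in hemicastrated and 17.3% ± 7.37 in sham mice (SD, n = 3 each). Rhox1, a reproductive homeobox gene, averaged 29.7% ± 3.01 in hemicastrated and 20.9% ± 3.39 in sham mice. Of the 10 X regions, 3 lay in annotated pseudogenes. These regions were found by the rule itself, so no test applies.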

How the results depend on the processing

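The number of members followed the cut-offs. It was 450 at a minimum of 5 reads (251 of them among the 290) and 153 at 20 reads (132 among the 290), 130 with at least 5 positions, 512 at 5 points and 140 at 10 points. Without 1 mouse, which loosens the rule, it was 497 to 778. Lower regions numbered 436 at 20 reads, 370 with 5 positions, 1040 at 5 points, 398 at 10 points and 1008 to 1903 without 1 mouse, more than the members in each setting. Regional members numbered 45 with bounds of 2 and 10 points for the classes and 61 at 20 reads. One-CpG members numbered 39 with those bounds, 31 when each position was left out on its own and 39 at 20 reads. Other region lengths, starts and weightings kept the counts within 1.5 times. The edgeR test called 3 of 103784 regions with no minimum of positions (1 higher, 2 lower) and 0 in every other setting run, the replicate block included. The numbers shared by the 2 groups were not taken as pairs. Same-number deviations correlated weakly, at 0.0615, 0.0800 and 0.0320, although each mouse correlated best with its own number. With 3 mice per group these values cannot tell whether the mice were paired. With the replicate block, 0 regions were called, and 3009 had an unadjusted p under 0.05. The difference in read share ran between -0.00692 and 0.00419 points without 1 mouse. Of the 36 named regions, 20 could be measured at 20 reads, and 13 moved by more than the spread when the top CpG was left out. None changed direction, but the rule fixes this when 1 mouse is left out. For regional members the class fixes it without the top CpG too. The size did change by more than 1.5 times in some regions without 1 mouse, such as the one near Tas1r2, from 16.9 to 7.06 points. Depth limits all of this, since the members were read less deeply than other regions.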
